A study of Mus musculus with 52 samples.

Results

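The subject is a set of 10 genes used as markers of tumor macrophages, Adgre1, Csf1r, Cd68, Mrc1, Cd163, Folr2, Trem2, Apoe, Gpnmb and Spp1. They were taken by symbol from the 27525 genes of the expression table, and all 10 were present once. They were followed in whole mouse tumors under 2 immune agonists. The tumors grew from KxPxCx (KPC) cells, 1 pancreatic tumor cell line from genetically engineered mice that carry Pdx1-Cre, injected under the flank skin of male C57BL/6NHsd mice of 8 to 10 weeks. The untreated group, labelled Control, received neither agent. The ADU-S100 group received 1 intratumoral injection of 2 µg of a STING agonist, a cyclic dinucleotide. The anti-LTβR group received 4 intraperitoneal doses of 100 µg of an agonistic antibody against the lymphotoxin β receptor, and the combination group received both. Each group held 8 individual tumors, collected on day 14, so that 32 tumors entered the comparisons.

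Macrophages in tumors arise from circulating monocytes and from cells resident in the tissue, and they depend on CSF1 signals through the receptor encoded by Csf1r. Their states are often told apart by transcripts. Mrc1, Cd163 and Folr2 mark scavenging cells that resemble tissue residents, and Trem2, Apoe, Gpnmb and Spp1 mark cells that take up lipid and debris, are rich in lysosomes or accompany wound repair. Several of these transcripts are not restricted to macrophages, since carcinoma cells can make Spp1 and Gpnmb, and fibroblasts can make Apoe. A whole-tumor library does not resolve cells, so fewer cells of a type and less RNA per cell cannot be told apart.

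Under the combination, 6 of the 10 genes rose (Gpnmb, Cd68, Apoe, Trem2, Csf1r and Adgre1), Spp1 fell, and Mrc1, Cd163 and Folr2 were not called. Gpnmb changed most of the set, to 4.65 times its untreated mean, whereas Spp1 came down to 0.57 of it. Under anti-LTβR alone, 3 of the genes rose (Cd68, Csf1r and Gpnmb), and under ADU-S100 alone none was called. Genes were called by limma on log2(normalized count + 1) with a Benjamini-Hochberg adjusted p below 0.05 over all genes tested. These calls stand against a broad background. In the combination comparison 19.6% of 16909 genes tested were called higher and 23.6% lower, in the anti-LTβR comparison 7.21% of 16691 were higher and 8.1% lower, and in the ADU-S100 comparison 0% of 16613 were called. With a fold change of at least 2 also required, Gpnmb alone of the set was called under the combination (5.16% of genes higher) and none under anti-LTβR (0.653%). Centring each library on its median left these member calls in place and moved the split of all called genes from 3310 higher and 3995 lower to 2827 and 5211 under the combination, and from 1203 and 1352 to 1064 and 1822 under anti-LTβR. The median log2 difference of the 10 genes was 0.48 under the combination, where that of all genes tested was -0.02, and 0.21 under anti-LTβR, where that of all genes was 0.00.

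The libraries were close in depth, with 12762453 to 15591986 reads recovered per tumor. A few tumors lay apart within their groups for these genes. Untreated tumor 3 held the highest Mrc1, Cd163, Folr2 and Spp1 of all 32 tumors and the highest Adgre1, Csf1r, Cd68 and Trem2 of its group. Its summed core macrophage genes (77185 normalized counts, group median 54195), T cell genes (1459, median 826) and B cell genes (266, median 122) were also the highest among untreated tumors. Combination tumors 5 and 6 held the highest Cd68, Trem2, Apoe and Gpnmb and the lowest Spp1 of their group. The defining macrophage genes outside the set were present in every group, and none of the 16 core genes checked, among them C1qa, Tyrobp, Mertk and Spi1, was at 0 in all tumors.

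**Figure D1:**
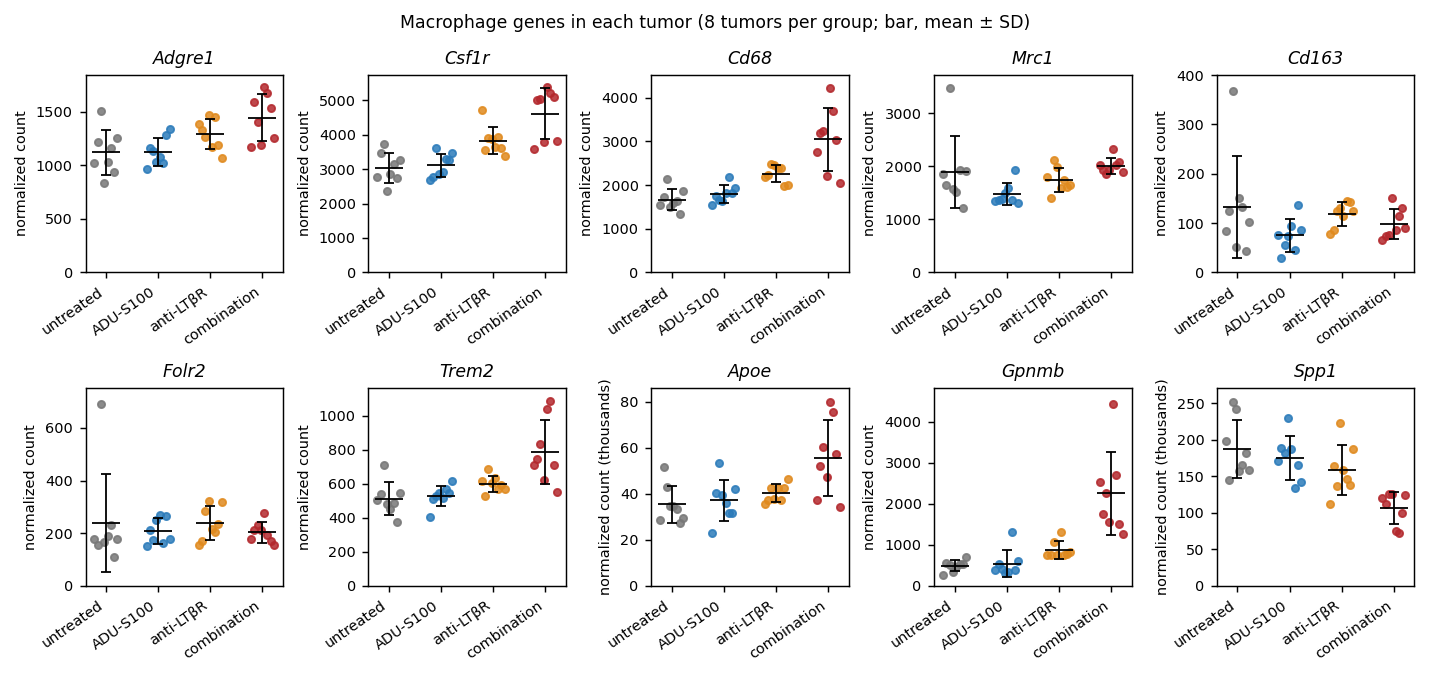
Normalized counts (vertical axes from 0, in units of 1000 for Apoe and Spp1) of the 10 genes in each tumor, by treatment group on the horizontal axis, with 8 points per group and bars for the mean ± SD. Gpnmb in the combination tumors, 1272 to 4434, lies above every untreated tumor, Spp1 lies below every untreated tumor, and 1 untreated tumor stands high for Mrc1, Cd163 and Folr2.

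The genes differed widely in level. Levels were divided by the length of the exons, joined over all annotated transcripts of a gene. Where the transcript made is shorter than this length (4946 bases for Trem2), the level per kb is understated, so the order is approximate. On this scale the untreated means ran from 113668 normalized counts per kb for Spp1 and 16524 for Apoe to 1326 for Cd68. They were 527 for Csf1r, 346 for Adgre1, 297 for Mrc1, 154 for Folr2, 103 for Trem2, 74.4 for Gpnmb and 24.3 for Cd163. Spp1 stood at rank 1 of 26500 genes by this measure in untreated tumors and at rank 4 in the combination, and Apoe moved from rank 38 to rank 18. Spp1 alone took 1.15% ± 0.23 (SD, n = 8) of the summed normalized counts in untreated tumors and 0.67% ± 0.14 under the combination. In untreated tumors the ranges of Spp1, Apoe, Cd68 and Csf1r did not overlap in this order, whereas each of the other 6 neighboring pairs overlapped. In the combination, Gpnmb stood between Adgre1 and Mrc1 and overlapped both, at 346 ± 157 (SD, n = 8) normalized counts per kb.

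The genes that identify macrophages came first. Adgre1 (chromosome 17, 57358691-57483527, plus strand, GRCm38) encodes F4/80, a surface receptor of mouse macrophages. Its lowest, median and highest normalized counts were 833, 1096 and 1508 in untreated tumors, 961, 1106 and 1336 under ADU-S100, 1066, 1296 and 1471 under anti-LTβR and 1168, 1470 and 1729 under the combination. All groups overlapped, although 4 of the 8 combination values exceeded the highest untreated value. The combination was higher than untreated by 0.37 on the log2 scale (SE 0.12, limma adjusted p = 0.0157), and this call was lost without combination tumors 5 and 6 (0.29). Neither agent alone gave a call, with a difference of 0.22 under anti-LTβR (limma adjusted p = 0.151), which passed at 0.28 without untreated tumor 3, and 0.02 under ADU-S100 (limma adjusted p = 0.943).

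Csf1r (chromosome 18, 61100598-61132149, plus strand), the receptor for the growth factors CSF1 and IL-34, had 2374, 2997 and 3734 normalized counts as its lowest, median and highest untreated values. The corresponding values were 2687, 3098 and 3610 under ADU-S100, 3395, 3770 and 4710 under anti-LTβR and 3582, 5028 and 5382 under the combination. The highest untreated value was exceeded by 7 of the 8 combination tumors and by 4 of the 8 anti-LTβR tumors. Csf1r was higher by 0.60 under the combination (SE 0.11, limma adjusted p = 3.85e-04) and by 0.34 under anti-LTβR (SE 0.09, limma adjusted p = 0.0165).

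Cd68 (chromosome 11, 69664213-69666153, minus strand) encodes a lysosomal glycoprotein abundant in macrophages. The lowest, median and highest values were 1331, 1605 and 2138 normalized counts in untreated tumors and 1546, 1788 and 2184 under ADU-S100. They were 1985, 2309 and 2475 under anti-LTβR and 2039, 3115 and 4214 under the combination. Untreated and combination ranges met only at their ends, since 7 of the 8 combination values exceeded the highest untreated value. The log2 difference was 0.85 under the combination (SE 0.13, limma adjusted p = 1.50e-04) and 0.45 under anti-LTβR (SE 0.08, limma adjusted p = 0.00336). The combination also exceeded anti-LTβR alone by 0.40 (SE 0.12, limma adjusted p = 0.0270), a call that was lost without combination tumors 5 and 6, where the difference was 0.26.

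Among the genes of lipid and debris handling, Trem2 (chromosome 17, 48346401-48354147, plus strand), a receptor for lipids and lipoproteins, had lowest, median and highest normalized counts of 374, 493 and 708 in untreated tumors and 402, 535 and 613 under ADU-S100. Under anti-LTβR they were 528, 599 and 687, and under the combination 548, 728 and 1083. The groups overlapped, with 6 of the 8 combination values above the untreated range. The combination was higher than untreated by 0.61 (SE 0.14, limma adjusted p = 0.00255), and anti-LTβR alone differed by 0.25 with no call (limma adjusted p = 0.0825). Without untreated tumor 3 the anti-LTβR difference was 0.32 and passed the threshold.

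Apoe (chromosome 7, 19696109-19699188, minus strand), a lipoprotein component that binds TREM2, ranged in untreated tumors from 27368 to 51473 normalized counts with a median of 33925. Under the combination it ranged from 34381 to 79873 with a median of 54641, with 5 of the 8 values above the untreated range. Under ADU-S100 the lowest, median and highest were 22762, 37693 and 53157, and under anti-LTβR 35358, 40088 and 46430, and both overlapped the untreated tumors. The combination was higher than untreated by 0.63 (SE 0.18, limma adjusted p = 0.0104), while anti-LTβR differed by 0.21 with no call (limma adjusted p = 0.205). The combination call was lost in the libraries above 14000000 reads (0.44), and the anti-LTβR difference passed without untreated tumor 2 (0.29, limma adjusted p = 0.0490).

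Gpnmb (chromosome 6, 49036546-49070929, plus strand), a lysosome-associated transmembrane glycoprotein, changed most. In the untreated tumors its lowest, median and highest normalized counts were 263, 520 and 707, and under ADU-S100 they were 302, 400 and 1301. Under anti-LTβR they were 741, 765 and 1320, and under the combination 1272, 2006 and 4434. Every anti-LTβR and every combination tumor was above every untreated tumor, a separation seen in 0.809% of all genes tested for anti-LTβR and 4.64% for the combination. The means were 485 ± 138, 533 ± 326, 871 ± 211 and 2254 ± 1020 (SD, n = 8 each) in the order untreated, ADU-S100, anti-LTβR and combination. The combination was higher than untreated by 2.16 on the log2 scale (SE 0.24, 95% interval 1.66 to 2.67, limma adjusted p = 1.35e-05), which placed Gpnmb at rank 69 of 16909 genes tested. Anti-LTβR alone was higher by 0.87 (SE 0.18, limma adjusted p = 0.00653), and the combination exceeded anti-LTβR by 1.29 (SE 0.21, limma adjusted p = 0.00104). ADU-S100 alone differed by 0.03 (95% interval -0.52 to 0.58), with ADU-S100 tumor 6 far above the other 7 tumors of its group. Combination tumor 5 was likewise far above its group, and without it the combination mean was 1942 ± 555 (SD, n = 7).

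Spp1 (chromosome 5, 104435118-104441050, plus strand), which encodes the secreted phosphoprotein osteopontin, moved the other way. Its lowest, median and highest normalized counts were 144529, 173500 and 251701 in untreated tumors and 133622, 176438 and 229199 under ADU-S100. They were 111252, 152458 and 222340 under anti-LTβR and 72452, 116092 and 126194 under the combination. All 8 combination tumors lay below every untreated tumor, a separation seen in 6.04% of genes tested, while the single-agent groups overlapped the untreated tumors. Spp1 fell by 0.82 under the combination (SE 0.17, 95% interval -1.17 to -0.46, limma adjusted p = 0.00112), whereas anti-LTβR alone differed by -0.25 (limma adjusted p = 0.272) and ADU-S100 alone by -0.09 (limma adjusted p = 0.786). Against anti-LTβR alone Spp1 in the combination fell by 0.57 (SE 0.16, limma adjusted p = 0.0180), a call that was lost without combination tumors 5 and 6 (-0.40). The ratio of Spp1 to Apoe, each per kb of exon, was 7.14 ± 1.82 (SD, n = 8) in untreated tumors and 2.81 ± 1.26 in the combination.

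The Spp1 result moved together with markers of other cells. Of 6 tumor epithelium genes, 4 fell under the combination (Krt8, Krt18, Krt7 and Krt19), where 23.6% of all genes tested fell. The summed level of all 6 went from a range of 16056 to 29267 normalized counts in untreated tumors to 6882 to 14787. Within groups, over 32 tumors, Spp1 followed this sum with a Pearson r of 0.55, and about as strongly, in the negative direction, the sums of the fibroblast (r = -0.55) and blood endothelium genes (r = -0.53). Next came the neutrophil (r = -0.47) and monocyte sums (r = 0.43). Without combination tumors 5 and 6 these were, in the same order, 0.44, -0.51, -0.44, -0.57 and 0.33. Without untreated tumor 3 they were 0.57, -0.56, -0.69, -0.45 and 0.42. The r of Spp1 with the sum of the 16 core macrophage genes was -0.20, which became -0.05 without combination tumors 5 and 6 and -0.35 without untreated tumor 3. For Gpnmb the strongest of these correlations was with the sum of 7 fibroblast genes (r = 0.71). All 7 rose under the combination, where 19.6% of all genes tested rose. Their sum went from a range of 91679 to 143722 normalized counts in untreated tumors to 161323 to 590991. Gpnmb also had r = -0.59 with the tumor epithelium sum and 0.59 with the blood endothelium sum. Its r was 0.55 with the sum of 17 lipid-associated genes and 0.40 with that of the core macrophage genes. The tumors that stood high for Gpnmb, ADU-S100 tumor 6 and combination tumor 5, held the highest fibroblast sums of their groups, 182566 and 590991 normalized counts. They also held the highest lipid-associated sums of their groups, 110395 and 149878. None of the epithelial or fibroblast genes was at 0 in all tumors of a group. The part of these cells in the Spp1 and Gpnmb differences was not tested.

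The sequences just upstream of the transcripts that moved apart, Gpnmb and Spp1, and of Cd68, which was called in both anti-LTβR groups, were read from RefSeq windows (GRCm38.p6) as the 250 bases before the start in the direction of transcription. Capitals mark matches, on either strand, to a myeloid PU.1-type core GAGGAA or to the AP-1 element TGACTCA. The Spp1 window lies at chr5:104434861-104435110 on the plus strand, the Gpnmb window at chr6:49036268-49036517 on the plus strand and the Cd68 window at chr11:69666171-69666420 on the minus strand.
Spp1: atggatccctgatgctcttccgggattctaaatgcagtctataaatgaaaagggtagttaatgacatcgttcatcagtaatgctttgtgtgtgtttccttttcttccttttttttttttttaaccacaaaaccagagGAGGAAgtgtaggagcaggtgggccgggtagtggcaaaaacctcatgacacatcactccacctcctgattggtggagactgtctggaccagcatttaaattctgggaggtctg
Gpnmb: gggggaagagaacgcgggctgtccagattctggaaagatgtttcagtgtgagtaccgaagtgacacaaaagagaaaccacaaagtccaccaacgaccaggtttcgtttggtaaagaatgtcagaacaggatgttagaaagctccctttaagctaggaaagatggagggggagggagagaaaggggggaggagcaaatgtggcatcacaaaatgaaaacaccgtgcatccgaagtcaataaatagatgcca
Cd68: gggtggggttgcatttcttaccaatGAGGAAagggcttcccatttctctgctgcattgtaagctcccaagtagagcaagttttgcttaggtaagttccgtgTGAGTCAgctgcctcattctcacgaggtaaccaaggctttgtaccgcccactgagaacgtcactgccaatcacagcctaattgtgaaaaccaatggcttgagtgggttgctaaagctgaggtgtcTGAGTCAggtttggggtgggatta

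Windows were read for 8 of the 10 genes, all but Adgre1 and Csf1r. GAGGAA was present in 5 of the 8 (Spp1, Cd68, Apoe, Mrc1 and Trem2), where 23.3% of 32851 mouse windows of this length hold it. TGACTCA was present in Cd68 alone of the 8, at both places shown, against 4.46% of windows. The E-box variants CATGTG and CACGTG, letters bound by lysosomal regulators of the MiT family among others, were found in Mrc1 only and in none, against 12.3% and 6.02% of windows. None of the 4 motifs matched in the Gpnmb, Cd163 or Folr2 windows, which says only that these letters are not in these bases.

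The scavenger and resident markers followed. Mrc1 (chromosome 2, 14229392-14332057, plus strand), the mannose receptor CD206, had lowest, median and highest normalized counts of 1206, 1753 and 3477 in untreated tumors and 1305, 1380 and 1940 under ADU-S100. They were 1404, 1703 and 2113 under anti-LTβR and 1849, 1976 and 2332 under the combination. The combination tumors were within the untreated range because untreated tumor 3 alone stood at 3477, with the next untreated tumor at 1934. Against untreated the combination difference was 0.15 (95% interval -0.17 to 0.46, limma adjusted p = 0.436), and without untreated tumor 3 it was 0.28 with a call (limma adjusted p = 0.0174). The combination was higher than ADU-S100 by 0.45 (SE 0.07, limma adjusted p = 1.25e-04) and higher than anti-LTβR by 0.22 (SE 0.07, limma adjusted p = 0.0359). The latter call was kept in only 7 of 14 alternative fits, with adjusted p up to 0.289, and in 8 of 16 fits that left out 1 tumor.

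Cd163 (chromosome 6, 124304656-124330527, plus strand), the scavenger receptor for haptoglobin and hemoglobin, was the least abundant of the set. Its lowest, median and highest normalized counts were 43.1, 114 and 369 in untreated tumors, 29.4, 74.8 and 138 under ADU-S100, 77.8, 124 and 144 under anti-LTβR and 65.4, 88.3 and 152 under the combination. Folr2 (chromosome 7, 101839988-101857194, minus strand), a folate receptor of resident macrophages, had 108, 178 and 692 in untreated tumors, 149, 195 and 270 under ADU-S100, 156, 226 and 321 under anti-LTβR and 153, 202 and 278 under the combination. All groups overlapped for both genes, and untreated tumor 3 was the highest of all tumors for both. Neither gene was called in any comparison. The combination differed from untreated by -0.18 for Cd163 (95% interval -0.90 to 0.54) and by -0.01 for Folr2 (95% interval -0.58 to 0.56). Both intervals include differences of the size called for Adgre1 (0.37) in either direction. Without untreated tumor 3 the Folr2 difference became 0.24 and that of Cd163 0.07, still with no call.

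**Figure D2:**
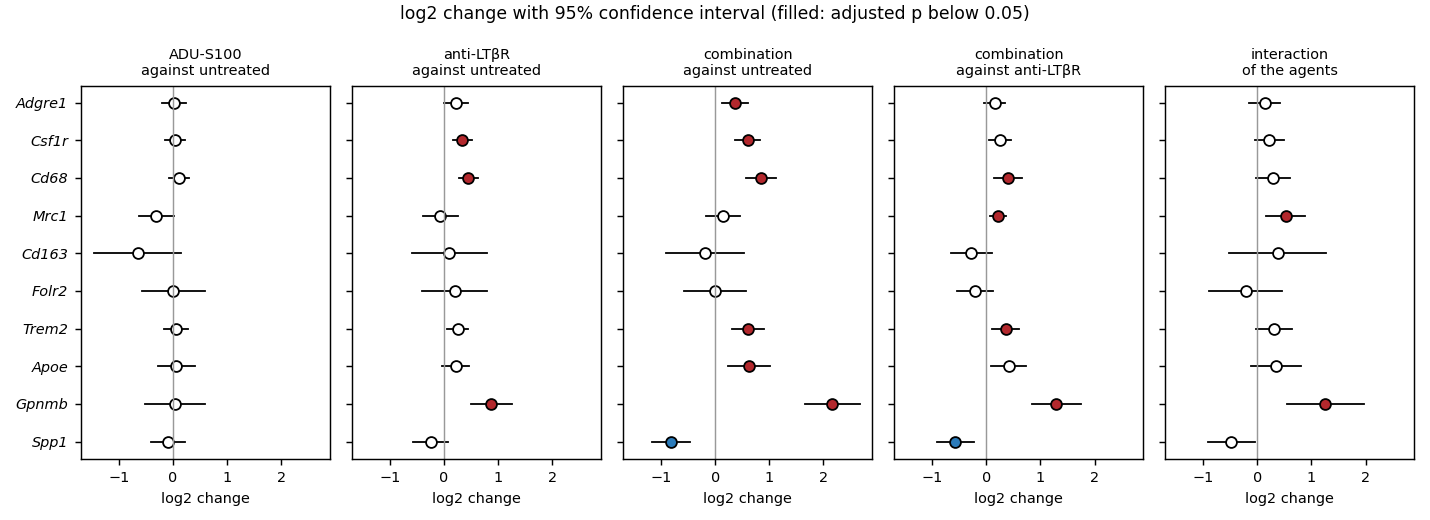
Points give the log2 difference of each gene (rows) in 4 comparisons and the interaction term (panels, horizontal axes in log2 units) with lines for the 95% confidence interval, filled red for genes called higher, filled blue for genes called lower and open for genes not called at an adjusted p of 0.05. In the panel of the combination against untreated, Gpnmb stands at 2.16 and Spp1 at -0.82, and in the ADU-S100 panel every interval crosses 0.

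The combination was then set against each single agent. These comparisons share the combination tumors with the one against untreated, so their values are given side by side and are not independent. Against anti-LTβR alone, where 11.3% of 16932 genes were called higher and 15.3% lower, 4 of the 10 genes were called higher (Gpnmb, Cd68, Trem2 at 0.36 and Mrc1) and Spp1 lower. With a fold change of at least 2 also required, Gpnmb alone was called (1.96% of genes higher). The 1917 higher and 2587 lower genes became 1660 and 3733 when libraries were centred on their medians, and 2087 and 1742 by edgeR on the recovered reads. Csf1r, at 0.26 (limma adjusted p = 0.0528), and Apoe, at 0.41 (limma adjusted p = 0.0580), were not. Csf1r was nevertheless called in 6 of 14 alternative fits, among them edgeR and DESeq2 on the recovered reads (adjusted p down to 0.0151), and in 4 of 16 fits that left out 1 tumor. This count was the least stable of the set. It rose to 7 without combination tumor 8, fell from 5 to 3 without anti-LTβR tumor 2, and to 2, Gpnmb and Spp1, without anti-LTβR tumor 7 or 8 or combination tumor 5 or 6, and without both combination tumors 5 and 6 Gpnmb alone remained called, at 1.05.

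Against ADU-S100 alone, where 20.2% of 16811 genes were called higher and 26% lower, 7 of the 10 genes were higher (Gpnmb at 2.13, Cd68 at 0.74, Csf1r at 0.56, Apoe at 0.56, Trem2 at 0.55, Mrc1 at 0.45 and Adgre1 at 0.35) and Spp1 was lower, at -0.73. Spp1 in all 8 combination tumors lay below every ADU-S100 tumor, a separation seen in 6.96% of genes. Gpnmb alone also passed a fold change of at least 2 (5.46% of genes higher), and the Apoe call was lost without combination tumors 5 and 6 (0.38). With only the libraries above 14000000 reads, Apoe (0.24, limma adjusted p = 0.252) and Adgre1 (0.21, limma adjusted p = 0.0779) lost their calls. Median centring moved the split over all genes from 3391 higher and 4368 lower to 2840 and 5734. ADU-S100 against untreated gave no call for any of the 10 genes or for any of the 16613 genes tested by limma, and 2408 genes, none of them among the 10, had an unadjusted p under 0.05. On the recovered reads edgeR called 1 gene and DESeq2 39 genes in this comparison, again none of the 10. The smallest p of the set belonged to Mrc1, at -0.30 (95% interval -0.63 to 0.02, limma adjusted p = 0.360). The largest difference was that of Cd163, at -0.65 (95% interval -1.45 to 0.15, limma adjusted p = 0.401), which was -0.84 to -0.40 when 1 tumor was left out.

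Whether the 2 agents together gave more than the sum of their separate differences was asked with an interaction term over all 32 tumors. Of 17649 genes tested 7.33% had a called positive and 11% a called negative term, 1293 against 1947 genes, which became 1042 against 2592 with median centring and 1476 against 1399 by edgeR with size factors. Of the 10 genes 2 passed, Gpnmb at 1.26 (SE 0.35, limma adjusted p = 0.0130) and Mrc1 at 0.52 (SE 0.18, limma adjusted p = 0.0399), and both terms were positive. For Gpnmb the effect of ADU-S100 was 0.03 in the absence and 1.29 in the presence of the antibody. For Mrc1 the corresponding values were -0.30 and 0.22, and without untreated tumor 3 the term was 0.39 and still called (limma adjusted p = 0.0376), whereas without combination tumors 5 and 6 it was 0.48 and not called. The term for Spp1 was -0.48 (95% interval -0.91 to -0.04) and did not pass after adjustment (limma adjusted p = 0.115), and the other 7 genes had terms between -0.21 and 0.37 with no call.

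Each gene was next set beside the other macrophage transcripts of the same tumor, as its log2 level less the mean log2 level of the 16 core macrophage genes. This is a description with no test, and 10 of these 16 core genes had themselves risen under the combination. On this scale Adgre1 (-0.06), Csf1r (0.17), Trem2 (0.18) and Apoe (0.19) in the combination overlapped the untreated tumors, with 0, 4, 3 and 2 of the 8 values above the untreated range. Without combination tumors 5 and 6 Trem2 stood at 0.11 and Apoe at 0.10. Cd68 was 0.42 higher relative to the core genes, with all 8 combination tumors above every untreated tumor. Gpnmb was 1.73 higher, again with all 8 above, and Spp1 stood at -1.25, with all 8 below. Mrc1 (-0.28), Folr2 (-0.44) and Cd163 (-0.61) had negative values whose groups overlapped, and without untreated tumor 3 these became -0.19, -0.23 and -0.40. Under anti-LTβR alone Gpnmb stood at 0.68, Cd68 at 0.26 and Spp1 at -0.44 relative to the core genes.

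**Figure D3:**
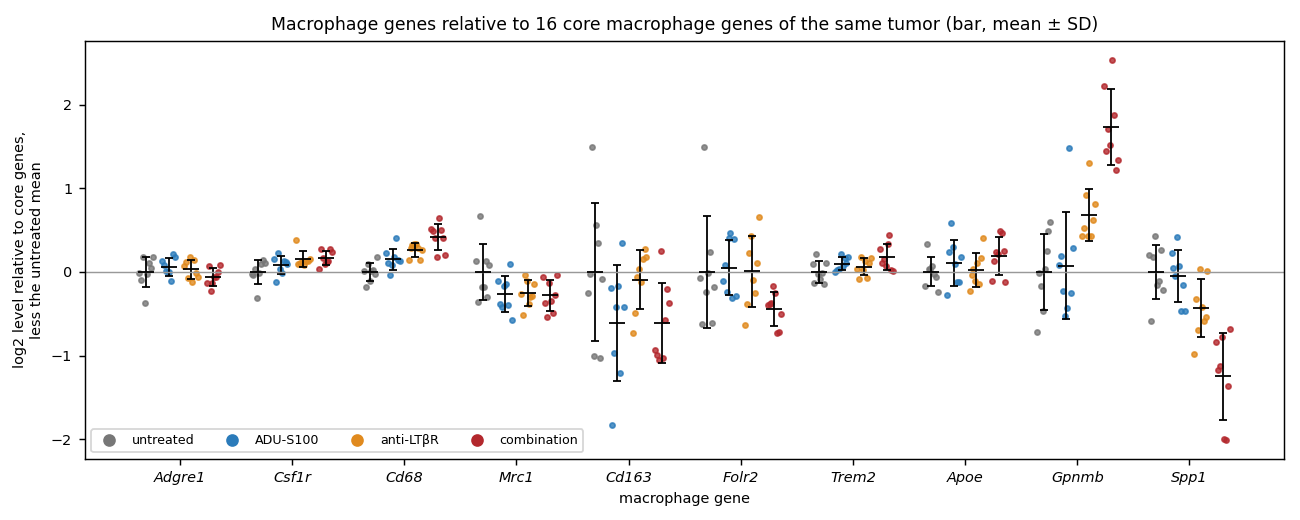
The log2 level of each gene relative to the mean of 16 core macrophage genes in the same tumor, less the untreated mean (vertical axis), for 8 tumors per group (points, colored by treatment) with bars for the mean ± SD. In the combination Gpnmb lies at 1.73 and Spp1 at -1.25 from the untreated mean, and the 8 combination tumors of Cd68 all lie above the untreated ones.

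How the genes moved together from tumor to tumor was described after subtracting each group's mean, over 32 tumors whose libraries share preparation and normalization. Adgre1 and Csf1r followed each other (Pearson r = 0.84), as did Cd68 and Trem2 (r = 0.87) and Trem2 and Apoe (r = 0.71). Among Mrc1, Folr2 and Cd163, r was 0.83 for Mrc1 and Folr2, 0.68 for Mrc1 and Cd163 and 0.65 for Folr2 and Cd163. Without untreated tumor 3 these values were 0.68, 0.52 and 0.47. Mrc1 also followed genes outside this trio, with r = 0.59 for Trem2, 0.58 for Adgre1 and 0.49 for Cd68 (0.47, 0.44 and 0.40 without untreated tumor 3), and Folr2 followed Trem2 with r = 0.56. The single groups of 8 tumors varied, with an r of 0.43 for Cd68 and Trem2 and 0.23 for Trem2 and Apoe under anti-LTβR, and 0.42 for Mrc1 and Folr2 under the combination. Gpnmb had r = 0.02 with Mrc1, was nearest to Cd68 (r = 0.63) and ran opposite to Spp1 (r = -0.55, and -0.47 without combination tumors 5 and 6). The r of Spp1 with Adgre1, Csf1r, Cd68, Trem2 and Apoe ran from -0.50 to -0.23, and without those 2 tumors from -0.42 for Csf1r to -0.02 for Apoe. Without untreated tumor 3 the range was -0.65 for Csf1r to -0.30 for Apoe. Within the single groups of 8 tumors, the r of Gpnmb and Spp1 was -0.50 for untreated tumors, -0.82 under ADU-S100, -0.08 under anti-LTβR and -0.67 under the combination.

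**Figure D4:**
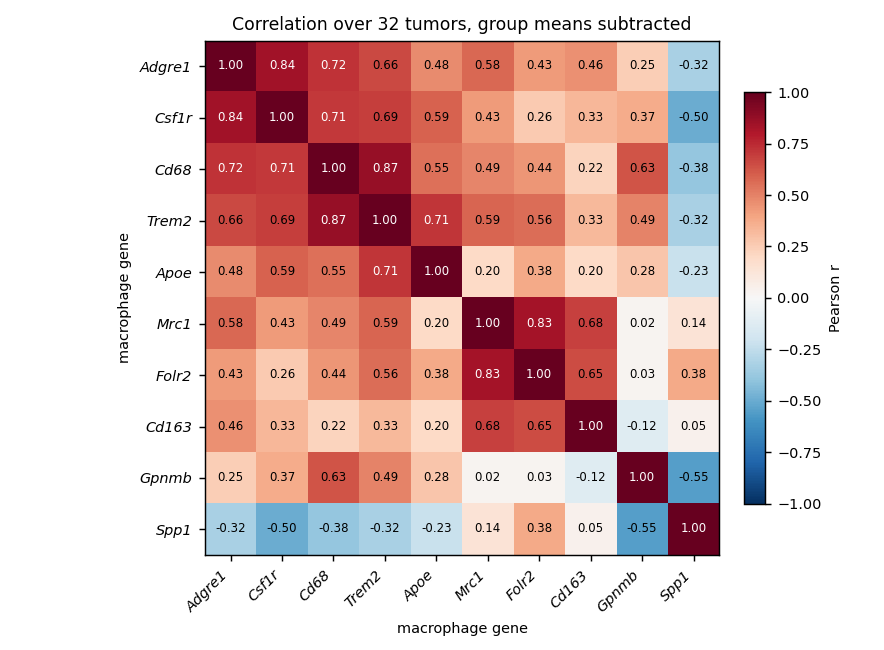
Pearson r between each pair of the 10 genes on the log2 scale after subtraction of group means, over 32 tumors, colored from -1 (blue) to 1 (red). Adgre1, Csf1r, Cd68, Trem2 and Apoe have r from 0.48 to 0.87 among themselves, Mrc1, Folr2 and Cd163 from 0.65 to 0.83, with Mrc1 at 0.59 with Trem2, and Spp1 has r from -0.50 to -0.23 against the first 5 genes and -0.55 against Gpnmb.

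The genes outside the set that were most like each member by the same measure, of 17639 compared, were named with no reading of shared function. Csf1r was nearest to Unc93b1, a chaperone of endosomal Toll-like receptors (r = 0.93), Arhgap30 and Laptm5, and Adgre1 to Ptpn6 (r = 0.82), Unc93b1 and Laptm5. Cd68 was nearest to the heparanase gene Hpse (r = 0.91), Psap and Cd84, and Trem2 to Hpse (r = 0.89), Hexa and Bst1. The chemokine genes Ccl9 (r = 0.90) and Ccl6 were nearest to Mrc1, followed by Cfp, and Ccl6 (r = 0.89), Trf and Gda were nearest to Folr2. Cd163 was nearest to Cbr2 (r = 0.86), Cd209f and C4b, Apoe to Cd38 (r = 0.87), Pkdcc and Pgpep1, and Gpnmb to Mgst1 (r = 0.84) and Ripk3. The genes nearest to Spp1 were Klhdc8a (r = 0.85), Prkar1a and Dnajc10.

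The wider macrophage programs were read from lists that hold none of the 10 genes. In the combination against untreated, 10 of 16 core macrophage genes rose and none fell, beside 19.6% and 23.6% of all genes tested, with a median log2 difference of 0.38. The 4 with the smallest adjusted p were Lyz2, which encodes lysozyme (1.28), the efferocytosis receptor gene Mertk (0.93), Ms4a7 (0.44) and the transcription factor gene Spi1 (0.46). Of the complement genes C1qb was called (0.33), while C1qc, at 0.29, and C1qa, at 0.21, were not. Under anti-LTβR alone 4 of the 16 rose, where 7.21% of all genes did, Lyz2 (0.76), Mertk (0.52), Cx3cr1 (0.48) and Ctss (0.40). Genes of a list beyond the 4 with the smallest adjusted p in the combination were named after their values were seen, here and in the lists that follow.

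Of 10 genes of the CSF1 axis and of monocyte recruitment, 4 rose and 5 fell in the combination, beside 19.6% and 23.6% of all genes tested. The receptor subunit genes Csf2rb (0.64) and Csf2ra (0.49), the growth factor gene Csf1 (0.31) and Ccr2 (0.67) rose. The second CSF1R ligand gene, Il34, fell by 0.85 on the log2 scale (SE 0.10, limma adjusted p = 2.17e-05), from a mean of 2940 ± 451 to 1624 ± 240 normalized counts (SD, n = 8). The monocyte chemoattractant genes Ccl2 (-0.39), Ccl7 (-0.41) and Ccl12 (-0.41) fell, as did Csf2 (-0.87). Under anti-LTβR alone, Ccl2 (-0.67), Ccl7 (-0.62) and Ccl12 (-0.48) were the 3 that fell and none rose, beside 8.1% of all genes lower and 7.21% higher.

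Of 17 genes of the lipid-associated program 5 rose in the combination, where 19.6% of all genes tested rose and 23.6% fell, led by the cholesterol exporter gene Abcg1 (0.90), the lysosomal lipase gene Lipa (0.71) and the protease gene Ctsb (0.51), with Abca1 (0.73) and Npc2 (0.32) as the others, and the tetraspanin gene Cd9 fell by 0.56 on the log2 scale. The median of the list was 0.46. Of 18 genes of the resident and scavenger program, 17 passed the filter on low values (Vsig4 did not) and 5 rose, Stab1 (0.82), Gas6 (1.08), Selenop (0.78), Lyve1 (1.37) and the sparse Marco (1.19). Lyve1 and Stab1 are also genes of lymphatic endothelium, whose 6 markers all rose. Of 12 inflammatory genes 7 rose, among them the nitric oxide synthase gene Nos2 (from a mean of 1083 to one of 4075 normalized counts), Fpr2 (log2 difference 1.49) and the chemokine genes Ccl5 (1.80) and Cxcl9 (0.91), and Il1b (-0.06), Il6 (-0.02) and Ptgs2 (0.06) were not called. Under anti-LTβR alone the counts were 4 higher and 1 lower of 17 for the lipid-associated program, 0 of 17 for the resident program, where 7.21% of all genes were called higher, and 4 of 12 for the inflammatory genes (Nos2 at 1.35, Ccl5 at 0.94, Cxcl10 at 0.61 and Cxcl9 at 0.57). Under ADU-S100 alone no gene of any list was called.

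**Figure D5:**
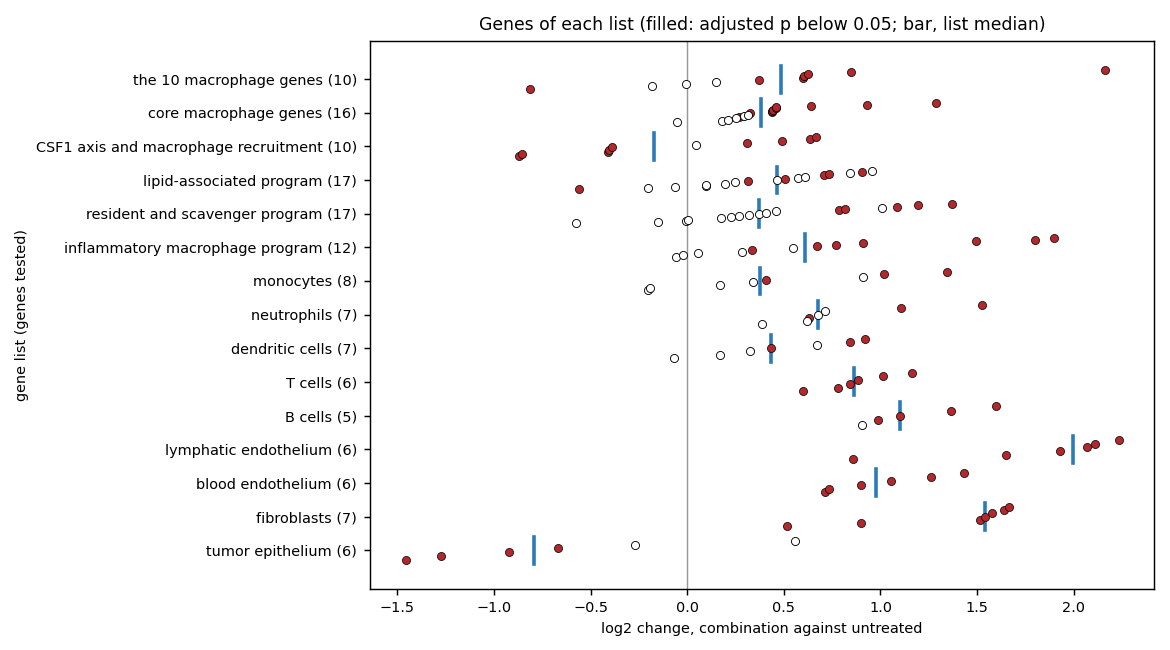
The log2 difference between combination and untreated tumors (horizontal axis) for each gene of the 10 macrophage genes and of 14 other lists (rows, with the number of genes tested), filled where the adjusted p was below 0.05, with a blue bar at the median of the list. The medians run from -0.80 for tumor epithelium to 2.00 for lymphatic endothelium, with 0.48 for the 10 macrophage genes.

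Markers of other cells moved in the same comparison, in which 19.6% of all genes tested rose. All 6 lymphatic endothelium genes rose (Flt4 at 2.07, Prox1 at 2.23 and Mmrn1 at 2.11 among them), as did all 6 blood endothelium genes (Egfl7 at 1.43), all 7 fibroblast genes (Col1a2 at 1.66), all 6 T cell genes (Cd4 at 1.16) and 4 of 5 B cell genes (Cd79a at 1.60). Of 8 monocyte genes Ace (1.34), Ly6c2 (1.02) and Plac8 (0.41) rose, of 7 neutrophil genes Mmp9 (1.52), Csf3r (0.63) and Mmp8 (1.10), and of 7 dendritic cell genes Zbtb46 (0.92), Clec9a (0.84) and Flt3 (0.43). Their part in the differences of the macrophage genes was not tested.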

How the data were processed

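RNA of 32 individual tumors was sequenced from stranded poly(A) libraries. The authors deposited signal values, normalized counts, that is estimated reads per gene divided by a library size factor. The submitters' processing notes name cutadapt 1.9, HISAT2, StringTie, STAR and Partek and build mm39, the study's methods describe HISAT2 and StringTie for mouse tumors, and its reporting summary STAR within Partek for bulk libraries. The name of the table itself gives Partek. A second table the authors deposited holds 52 libraries as signal values in whole reads divided by size factors. There 100% of the low values came out whole within 0.05 reads, so reads were recovered for count models and depth, with 9 of the 10 genes present (no Apoe row). Of its other 20 libraries, from a second experiment, 15 carry no treatment label, only a letter A, B or C in their names. The other 5, lettered D, are labelled as the combination, and none of the 20 entered a comparison. In the first experiment the letters A to D name untreated, ADU-S100, anti-LTβR and combination tumors. The labels do not say whether A to C mean the same in the second. A gene set file holds the authors' enrichment scores, p-values and FDR and was not used.

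Genes passing filterByExpr with a minimum count of 10 were tested with limma 3.58.1 (trend) in R 4.3.3 on log2(normalized count + 1), so fold changes of low genes are understated, on the 16 tumors of each comparison and on 32 for the interaction, with Benjamini-Hochberg adjustment over all genes tested and two-sided p-values. The labels name separate tumors, and p-values measure the spread between them. The labels do not name the mouse of each tumor, so whether any tumors shared a mouse is not known. Tested on simulated data, the pairwise limma script recovered every planted change and the interaction script nearly every one. The planted changes had a single size, larger than every called difference of the 10 genes except those of Gpnmb. They were set in genes that were not low, with the same dispersion for all genes. The recovery therefore does not speak for smaller differences or more variable genes. Alternatives were pseudocounts of 0.5 and 0.1, no filter, at least 10 normalized counts in every library, a joint fit, a replicate block, edgeR 4.0.16 with 3 scalings, DESeq2 1.42.0, median centring, only libraries above 14000000 reads, a 2-fold minimum and, in the comparisons of 2 groups, leaving out each tumor. Leaving out combination tumors 5 and 6, and untreated tumor 3 for the interaction and the levels relative to core genes, was added after seeing the data. Depth was 12762453 to 15591986 recovered reads per tumor. No 2 libraries were identical.

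Named genes were the 10 members, of each list up to 4 genes with the smallest adjusted p in the combination against untreated, and for each member the 3 genes with the highest r, of which 1 is not reported here. The members and lists were chosen with earlier results of these data known. Positions are from GENCODE M21 (GRCm38) by symbol, and exon lengths from it served per-kb levels for 26500 genes. Promoter windows are the RefSeq windows nearest to the annotated start.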

Additional observations from a re-analysis of the deposited data

Results flagged for a closer look

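Of 40 groups of 8 tumors (10 genes in 4 groups) 8 held a tumor far from the others by Dixon's criterion on the normalized counts. The rate of about 1 in 20 for this criterion holds for independent groups of normally distributed values. Here the same tumors recur for genes that move together, so the count cannot be set against that rate. These were Csf1r in anti-LTβR tumor 1 (4710 normalized counts), Mrc1 in untreated tumor 3 (3477), ADU-S100 tumor 7 (1940) and combination tumor 5 (2332), Gpnmb in ADU-S100 tumor 6 (1301) and combination tumor 5 (4434), and Cd163 (369) and Folr2 (692) in untreated tumor 3. Untreated tumor 3 also held 28566 normalized counts over the resident and scavenger list, where the untreated median was 14676.

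The interaction term of the agents was called for Mrc1, at 0.52 on the log2 scale (limma adjusted p = 0.0399), and for Gpnmb, at 1.26 (limma, all 32 tumors). The Gpnmb call was kept in all 12 alternative fits. The Mrc1 call was kept in 9 of 12, with a limma adjusted p up to 0.265 in the others.

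The 5 combination libraries of the second experiment were normalized together with the others in the larger table. Their median exceeded the highest untreated tumor of that table for Adgre1 (1867 against 1528 normalized counts), Csf1r (5770 against 3785), Cd68 (2396 against 2168) and Trem2 (780 against 717). The 15 libraries of that experiment with no group label, lettered A, B or C, were pooled, and no median was taken per letter. The pooled medians were also above those untreated tumors for Adgre1 (1887) and Csf1r (5058). The pool mixes letters of unlabelled treatment, so it does not give the untreated level of that experiment. A difference between the experiments therefore cannot be told apart from the combination here. The pooled median was 2043 for Cd68 and 638 for Trem2, inside the untreated range. For the 5 combination libraries the median Gpnmb of 604 lay inside the untreated range, as did the median Spp1 of 159070. The 5 libraries spread widely, with Csf1r from 2544 to 28456, and they have no untreated tumors of their own experiment among the labelled libraries.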

How the results depend on the processing

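No called log2 difference of the 10 genes changed sign in 335 recomputed values, nor when 1 tumor was left out. Of 110 recomputed counts of called genes and levels relative to the core genes, all but 9 stayed within 1.5 times the reported count or within the replicate SD of the reported level. With a fold change of at least 2 also required, the counts became 1 for the combination against untreated, 0 for anti-LTβR against untreated, 1 for the combination against anti-LTβR and 1 against ADU-S100. With only libraries above 14000000 reads, which leaves out 7 tumors, and without combination tumors 5 and 6, the combination against anti-LTβR gave 1 and the interaction 1, as the interaction did with no filter. The interaction term that lost its call in these settings was that of Mrc1. The depth restriction also ended the calls of Adgre1 (0.30) and Apoe (0.44) in the combination against untreated. Leaving out 1 tumor gave 3 to 5 calls for anti-LTβR against untreated and 2 to 7 for the combination against anti-LTβR.

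Values that changed sign all belonged to uncalled differences. Folr2 was 0.23 in the combination against untreated by DESeq2. In anti-LTβR against untreated, Cd163 was -0.18 (edgeR with TMM), -0.17 (size factors), -0.16 (library totals) and -0.17 (DESeq2), and Folr2 -0.0074, -0.0012 (size factors) and -0.0013 (DESeq2). In ADU-S100 against untreated, Folr2 was -0.20 in all 4 fits on recovered reads, Adgre1 -0.0035 with library totals and Gpnmb -0.13 in the deeper libraries. Folr2 was 0.0097 (TMM) and 0.0019 (library totals) in the combination against ADU-S100, and its interaction term 0.0039 (size factors) and 0.0043 (DESeq2). The Adgre1 interaction term was -0.083 in the deeper libraries. Leaving out 1 tumor gave ranges across 0 for Cd163 (-0.37 to 0.069) and Folr2 (-0.14 to 0.24) in the combination against untreated, Mrc1 (-0.15 to 0.067) and Cd163 (-0.091 to 0.35) in anti-LTβR against untreated, and Folr2 (-0.083 to 0.043) in the combination against ADU-S100. In ADU-S100 against untreated the ranges were -0.039 to 0.083 for Adgre1, -0.012 to 0.081 for Csf1r, -0.0035 to 0.13 for Trem2, -0.17 to 0.13 for Gpnmb, -0.015 to 0.16 for Apoe and -0.12 to 0.26 for Folr2. The cause was not tested.

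Same-numbered tumors share only a number. Their deviations correlated over 0.1 in 2 to 5 of 8 pairs per comparison, and 1 or 2 of 8 tumors correlated best with their own number. With the replicate block the counts were 7, 3, 0, 4 and 8 for the combination and the agents alone against untreated and the combination against anti-LTβR and ADU-S100, and 2 for the interaction. Mrc1 in the combination against anti-LTβR lost its call (limma adjusted p = 0.0647). Over all genes the block moved the calls of anti-LTβR against untreated from 1203 higher and 1352 lower to 820 and 840.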
